A study of Mus musculus with 36 samples.

Results

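The regions described here had no peak in stem cells or multipotent progenitors of mouse bone marrow and had a peak in both granulocyte-macrophage progenitors (GMPs) and common lymphoid progenitors (CLPs). They were selected on peak calls from ATAC-seq, an assay that reads out open chromatin by where a transposase can cut and tag the DNA. Peaks of all 36 libraries that overlapped by 1 bp or more were merged into 105005 regions, and a region was kept if it was called in 2 or more of 4 GMP and 2 or more of 4 CLP libraries and in 0 of the 24 libraries of hematopoietic stem cells (HSCs) and multipotent progenitors MPP1 to MPP4. This gave 1536 regions, called the shared new regions below. The absence of a call is a statement about a threshold, since a weakly open region can stay under it.

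Cells were sorted from C57BL/6 mice, which were young (10 weeks) or aged (20 months), and each library was made from 20000 cells. By the labels GMPs carried c-kit, FcgR and CD34 and lacked IL-7, lineage markers and Sca-1, and CLPs were IL-7+ and lineage negative with low Sca-1 and low c-kit. Megakaryocyte-erythrocyte progenitors (MEPs), which differ from GMPs in the labels by lacking FcgR and CD34, had 4 libraries as well and were not used by the selection. HSCs had 4 libraries of each age and MPP1 to MPP4 had 2 of each age. Each of these 3 fractions had 2 young and 2 aged libraries. Per the study's methods the mice were female. A figure legend of the study states that marrow cells were pooled and sorted in duplicate, while its text speaks of biological duplicates. Libraries of an age may therefore share a pool, and the spread between them may be technical.

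GMPs produce neutrophils and macrophages, and CLPs produce B, T, natural killer and some dendritic cells. The ETS-family factor PU.1, encoded by Spi1, acts in both lineages, and it can bind DNA together with interferon regulatory factors (IRF4 or IRF8) at composite elements in which an ETS site and an IRF site lie side by side. C/EBP factors drive granulocyte and monocyte genes, whereas E2A, encoded by Tcf3, and EBF1 drive the lymphoid program.

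Sequences of 6 shared new regions are shown first, as examples of the motifs described below. Each is the window of 201 bases centred on the median peak summit, on the plus strand of mm10 (GRCm38), with matches to the ETS-IRF consensus GGAANNGAA or to the PU.1 consensus GAGGAAGT on either strand in capitals. The regions near Mcoln3, Csf3r, Il7r and Ikzf1 hold an ETS-IRF match, those near Il7r and Thbs1 a PU.1 match, and in that near Nfkbiz a PU.1 match runs into an ETS-IRF match. All 6 thus hold a match, whereas 1069 of the 1533 shared new regions with sequence had no ETS-IRF match.
Mcoln3, chr3:146135004-146135204 (intron of Mcoln3): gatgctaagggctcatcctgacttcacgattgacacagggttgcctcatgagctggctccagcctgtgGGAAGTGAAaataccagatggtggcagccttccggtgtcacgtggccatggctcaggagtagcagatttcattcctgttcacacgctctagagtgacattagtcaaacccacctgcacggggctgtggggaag
Csf3r, chr4:126019073-126019273 (intergenic): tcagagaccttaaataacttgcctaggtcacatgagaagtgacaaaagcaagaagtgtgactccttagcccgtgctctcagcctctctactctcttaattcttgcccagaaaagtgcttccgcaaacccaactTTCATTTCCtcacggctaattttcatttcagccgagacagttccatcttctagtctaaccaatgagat
Il7r, chr15:9571947-9572147 (intergenic): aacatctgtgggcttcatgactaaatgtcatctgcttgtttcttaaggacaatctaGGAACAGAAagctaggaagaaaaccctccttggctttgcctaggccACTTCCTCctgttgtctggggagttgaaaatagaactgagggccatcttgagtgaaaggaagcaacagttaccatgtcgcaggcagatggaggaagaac
Ikzf1, chr11:11716691-11716891 (intron of Ikzf1): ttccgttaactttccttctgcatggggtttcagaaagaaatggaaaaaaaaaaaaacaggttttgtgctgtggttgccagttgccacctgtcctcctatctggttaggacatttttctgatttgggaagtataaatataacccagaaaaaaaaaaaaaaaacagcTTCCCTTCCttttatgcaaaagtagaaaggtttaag
Thbs1, chr2:117913983-117914183 (intergenic): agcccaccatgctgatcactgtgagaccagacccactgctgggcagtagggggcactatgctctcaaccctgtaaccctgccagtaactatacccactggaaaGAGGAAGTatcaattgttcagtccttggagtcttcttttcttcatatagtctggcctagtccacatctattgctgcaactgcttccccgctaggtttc
Nfkbiz, chr16:55781272-55781472 (intergenic): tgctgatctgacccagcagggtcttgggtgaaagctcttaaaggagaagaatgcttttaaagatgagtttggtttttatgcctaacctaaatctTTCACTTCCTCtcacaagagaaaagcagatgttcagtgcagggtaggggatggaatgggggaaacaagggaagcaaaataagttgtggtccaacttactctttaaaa

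Of the motifs searched, ETS-IRF was the most frequent in the shared new regions. It lay within 100 bp of the summit in 464 of the 1533 regions with sequence (30.3%), against 8.88% of all regions in the catalogue with the same window. It was found in 10.8% of regions called in GMPs and in no CLP, HSC or MPP library (17406 regions, called GMP regions without CLP) and in 17.4% of the converse CLP regions without GMP (1556 regions). The PU.1 consensus was matched in 15.5% of the shared new regions and in 8.44% of all regions, and the IRF consensus (AAANNGAAA) in 15.7% and 10.1%, beside 17.2% of CLP regions without GMP. The selection used calls and not sequence, and these shares are a description, since regions are not replicates of a condition.

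For C/EBP, E2A, E-box and RUNX matches, the shared new regions lay between the single-lineage sets. C/EBP (TTGCNNAA) was matched in 28.7% of GMP regions without CLP, in 5.53% of CLP regions without GMP and in 11.4% of the shared new regions. E2A (CAGGTG) was matched in 31.6% of CLP regions without GMP, in 7.66% of GMP regions without CLP and in 11.9% of the shared new regions, beside 11.9% of all regions. The related E-box CAGCTG was matched in 19.8% of the shared new regions, between the GMP set (12.3%) and the CLP set (33.8%). The RUNX consensus (TGTGGTT) was matched in 14.7% of the shared new regions, in 11.3% of the GMP set and in 21.4% of the CLP set. Some matches were less frequent than in all regions. AP-1 (TGANTCA) was matched in 5.09% of the shared new regions against 11.4% of all regions, the consensus of GATA factors, AGATAAG, in 1.96% against 3.86%, and CTCF, searched by a longer consensus, in 0.130% against 2.11%. CLP regions without GMP had lower shares still, with 3.67%, 0.965% and 0.0644%. All motifs were searched on both strands, and a PU.1 match that continued into an ETS-IRF match was seen in 37 regions, which count under both names.

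**Figure D1:**
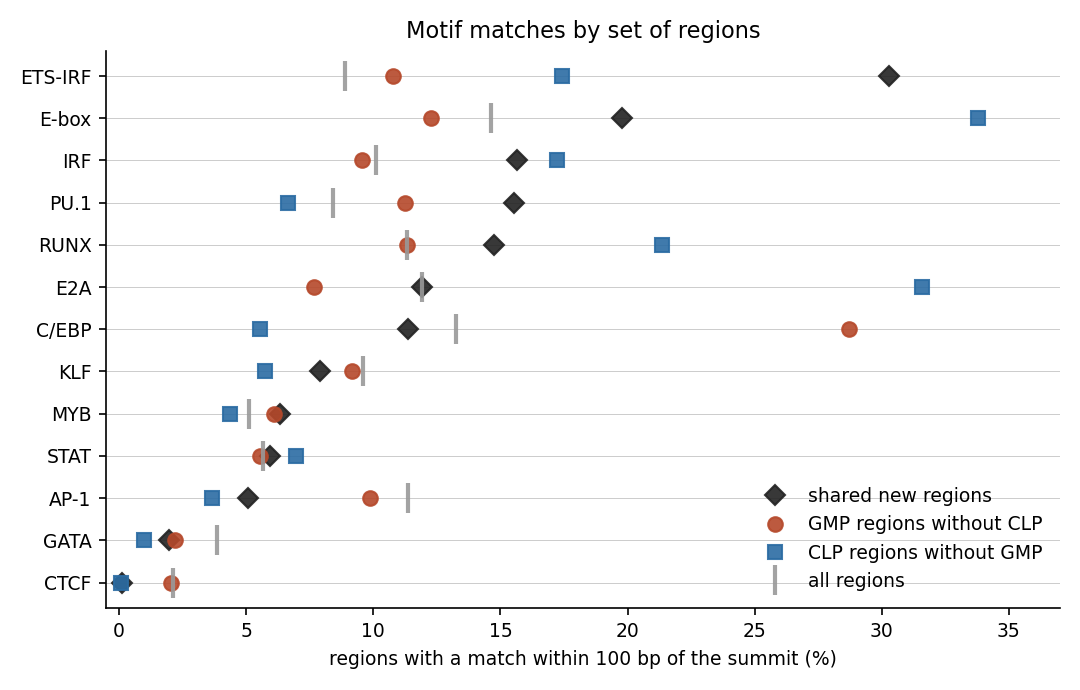
Share of regions (percent, horizontal axis) with a match to each of 13 motifs within 100 bp of the summit, for the shared new regions (diamonds), GMP regions without CLP (circles), CLP regions without GMP (squares) and all regions of the catalogue (upright bars). The shared new regions lie to the right of the other sets for ETS-IRF (30.3%) and PU.1 (15.5%), while C/EBP and E2A are highest in the GMP and CLP sets.

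The spacing of the ETS and IRF parts was examined next. When the ETS part (GGAA) and the IRF part (GAA) were searched 0 to 8 bases apart, a choice made after the shares above were seen, a gap of 2 bases gave 30.3% of the shared new regions, which is 3.41 times the share in all regions. The 8 other gaps gave 6.59% to 14% and ratios of 0.932 to 1.73, the highest for a gap of 4 bases. The gap of 2 was also the most frequent in CLP regions without GMP (17.4%, against 4.25% to 8.69% at the other gaps). In GMP regions without CLP it gave 10.8%, beside 11.0% for a gap of 4 bases. Of the 502 matches at the gap of 2, 30.1% had GT between the parts and 19.1% had CT, against 17.6% and 10.8% of 9937 such matches in all regions. Matches lay near the summit: 12.4% of the shared new regions had the nearest match within 20 bp of it and 1.83% had it 80 to 100 bp away, whereas in all regions the same bins held 2.40% and 1.07%. The median distance was 28 bp in the shared new regions and 38 bp in all regions.

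**Figure D2:**
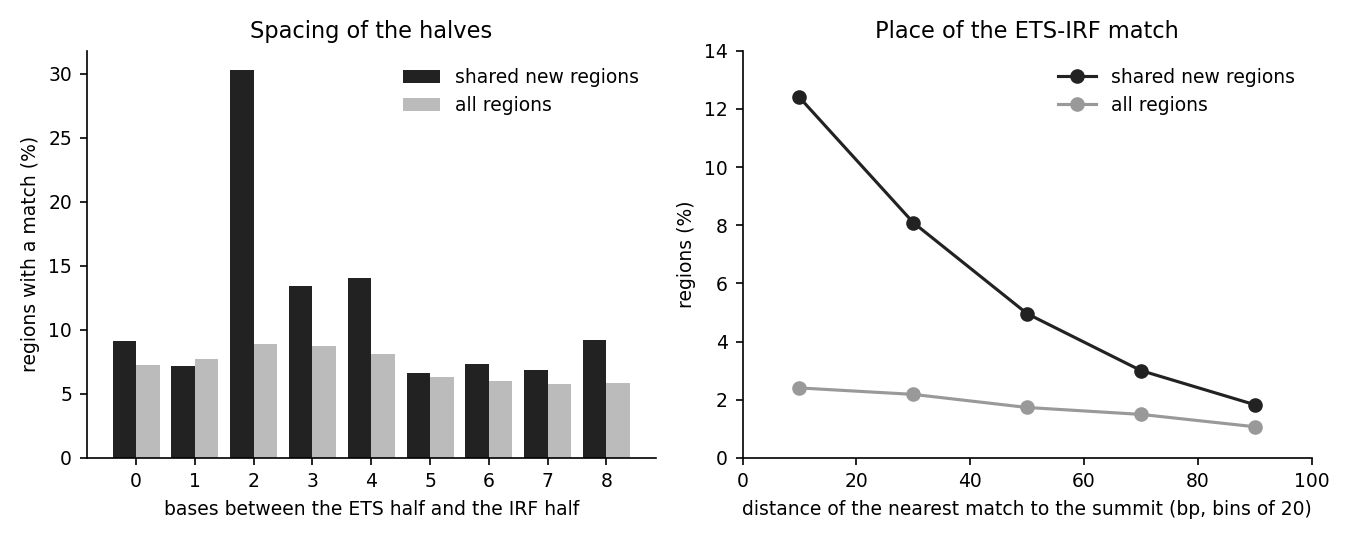
Left, share of regions (percent) with GGAA and GAA separated by 0 to 8 bases on either strand, in the shared new regions (black bars) and in all regions (grey bars). Right, share of regions (percent) whose nearest ETS-IRF match falls in each bin of 20 bp from the summit, with black points for the shared new regions and grey points for all regions. The black bar at 2 bases (30.3%) exceeds those at the other gaps, and the black curve falls from 12.4% to 1.83% with distance.

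The share with an ETS-IRF match was lower in regions that were open in both GMPs and CLPs and also called upstream. Among regions called in 2 or more GMP and 2 or more CLP libraries, it was 20.8% in the 725 with 1 call in the 24 HSC and MPP libraries, 16.5% in the 2571 with 2 to 6 calls, 9.97% in the 2517 with 7 to 12 calls and 5.71% in the 12369 called in all 24. Promoters made up 2.67% of the shared new regions with sequence and 49.8% of regions called in all 24. Outside promoters the shares with a match were 30.6% and 7.35%. PU.1 and RUNX were matched most often at 1 call (18.3% and 17.8%) and in 5.51% and 7.57% of regions called in all 24. Grouping by upstream calls was added after the shares above were seen.

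**Figure D3:**
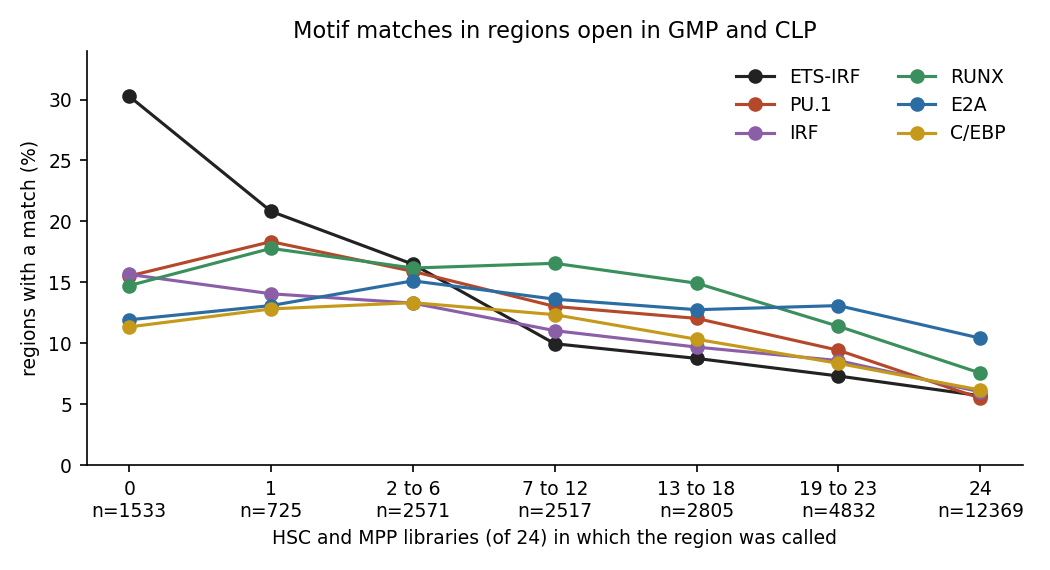
Share of regions (percent, vertical axis) with a match to 6 motifs, for regions called in 2 or more GMP and 2 or more CLP libraries, grouped by the number of the 24 HSC and MPP libraries in which they were called (horizontal axis, with the number of regions with sequence). ETS-IRF falls from 30.3% at 0 calls to 5.71% at 24 calls.

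The calls that chose the regions were distributed as follows. In GMPs 1054 of the 1536 regions (68.6%) were called in all 4 libraries, 260 in 3 and 222 in 2. In CLPs 586 (38.2%) were called in all 4, 395 in 3 and 555 in 2. Only 425 (27.7%) were called in all 8 libraries, and these had a median fold enrichment (the height of the peak over the local background, as given by the peak caller) of 11.1 in GMPs and 8.62 in CLPs. The 94 regions just inside the rule, with 2 calls in each fraction, had medians of 6.69 and 6.43. Just outside it, the 725 regions with 1 upstream call had medians of 10.4 and 7.23, the 280 with 1 GMP call had 6.61 and 7.12, and the 1060 with 1 CLP call had 8.51 and 5.98. Of the 725, MPP4 gave the call in 459 (63.3%), MPP3 in 171, MPP2 in 46, HSC in 32 and MPP1 in 17.

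The shared new regions formed 7.68% of the 20002 regions called in GMPs without any upstream call, and 45.6% of the 3372 such regions in CLPs. The number of peaks differed between the fractions, with 52576 to 63288 in GMPs, 27117 to 34205 in CLPs and 9581 to 11041 in MEPs, against 27087 to 40157 in HSCs and MPPs. Reads had been subsampled by the authors to the same number in all libraries, and the lists do not give the reads behind a single peak.

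The young GMP libraries called 83.7% and 94.9% of the shared new regions, and the aged GMP libraries 91.6% and 84.0%. The young CLP libraries called 63.5% and 80.5%, and the aged CLP libraries 68.6% and 89.3%. Ages overlapped in both fractions, but not when every library except MEP was limited to the same number of peaks, which left 675 regions (aged minus young -15.2 percentage points in GMPs and 12 in CLPs). The mean share was 89.3% ± 7.96 (SD, n = 2) in young and 87.8% ± 5.39 (SD, n = 2) in aged GMPs. In CLPs it was 72.0% ± 12 in young and 79.0% ± 14.6 in aged (SD, n = 2 each). These calls chose the regions, so the shares are given without a test, and the sign of either difference turned when 1 library was left out. Over all regions called in 2 or more GMP libraries the aged minus young difference was 3.8 percentage points, and over those called in 2 or more CLP libraries it was -3.85.

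Few of the shared new regions were called in MEPs. Each of the 4 MEP libraries called 2 of the 1536, and 3 were called in any of them (0.195%, exact Clopper-Pearson 95% interval 0.0403 to 0.570%, which covers counting error only). The share was 0.593% with the same number of peaks in every other library, and 0.0812% without young CLP replicate 2. The MEP lists were the shortest, and the part of this in the low share was not tested. They called 13.3% of all regions in the catalogue and 39.4% of the 25867 regions that were open in GMPs and CLPs and also called in HSCs or MPPs. GMP regions without CLP and CLP regions without GMP, which also had no upstream call, were called in MEPs at 0.299% and 0.257%. These shares were not tested against each other. The region called in all 4 MEP libraries lay in an intron of Mrvi1, at chr7:110920326-110921126, and had a mean fold enrichment of 7.71 over 3 GMP and 8.74 over 2 CLP libraries with a call. The other two, at Nsmaf (3 MEP libraries) and Mturn (1 MEP library), were named after their calls were seen.

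**Figure D4:**
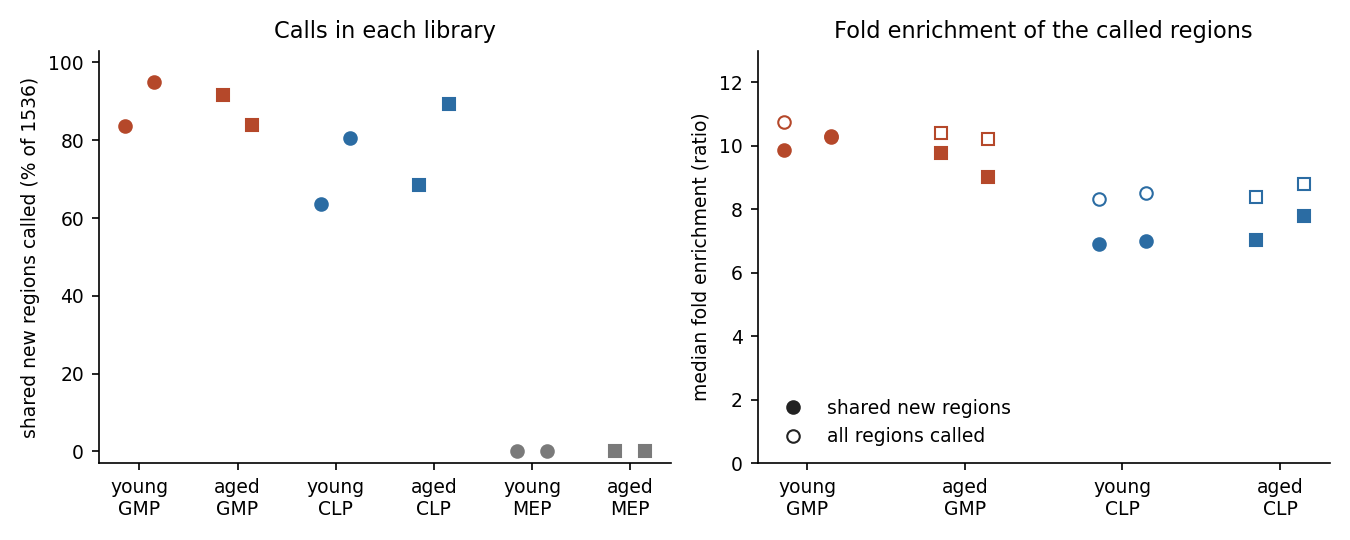
Left, share of the 1536 shared new regions (percent) called in each GMP, CLP and MEP library, with circles for young and squares for aged libraries. Right, median fold enrichment of the shared new regions (filled) and of all regions called (open) in each GMP and CLP library. GMP libraries called 83.7% to 94.9% and CLP libraries 63.5% to 89.3%, while each MEP library called 0.130%.

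The shared new regions were weaker than the median region in every GMP and CLP library except young GMP replicate 2, where they were at it (10.3 against 10.3). Their median fold enrichment was 9.88 and 10.3 in young GMPs, 9.79 and 9.04 in aged GMPs, 6.91 and 7.01 in young CLPs, and 7.03 and 7.79 in aged CLPs. The median percentiles among all regions called in a library were 42.5 to 50.3 in GMPs and 32.3 to 40.4 in CLPs. The single-lineage sets were not stronger: GMP regions without CLP had 33.7 to 38.0 in GMPs, and CLP regions without GMP had 29.7 to 36.3 in CLPs. In bulk material a lower value can come from fewer cells with an open region or from less open chromatin per cell, and these cannot be told apart.

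The regions lay mostly far from promoters. Of the 1536, 735 (47.9%) were intergenic, 707 (46.0%) intronic, 41 (2.67%) at promoters, 27 in coding exons, 22 in 3' UTRs and 4 in 5' UTRs of GENCODE protein-coding transcripts. The promoter share was 3.23% in GMP regions without CLP, 2.06% in CLP regions without GMP, 12.1% in all regions and 32.3% in regions open in GMPs, CLPs and also upstream. The median distance to the nearest transcription start site (TSS) was 27159 bp, against 21673 bp in GMP regions without CLP, 31804 bp in CLP regions without GMP and 18733 bp in all regions. The median GC content around the summit was 47.3% (49.8% in all regions), and the median width was 339 bp. A region called in HSCs or MPPs lay within 10000 bp of 66.8% of them, at a median of 5724 bp. The same held for 68.7% of GMP regions without CLP (median 5185.5 bp) and 62.1% of CLP regions without GMP (median 6572.5 bp). For 54.1% the promoter of the nearest gene was called in all 8 HSC libraries, near the 55.2% of all regions. In the 425 called in all 8 libraries the GMP and CLP summits were at a median of 16.5 bp from each other, and 81.9% were within 50 bp, against 75.7% of all 18378 such regions. The regions were dispersed: the median distance between neighbours was 259240 bp, and 4.70% had another within 10000 bp, compared with 6.37% for CLP regions without GMP (median 281380 bp), a set of similar size, and 35.2% for the larger set of GMP regions without CLP.

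The strongest regions were taken as the 12 called in all 8 libraries whose lowest percentile over these libraries was highest. The top region, in an intron of Mcoln3, which encodes an endosomal and lysosomal cation channel, had fold enrichments of 21.5 and 24.7 in young and 23.3 and 18.2 in aged GMPs. Its values were 11.9 and 15.1 in young and 12.6 and 18 in aged CLPs. The GMP values were above the CLP values as deposited. The difference was 0.01 on the log2 scale once each library was centred on its median over regions called in all 8 libraries. Its lowest percentile was 76.8. Regions in introns of Stxbp6 (means of 18.7 in GMPs and 16.1 in CLPs), Dock8 (16.3 and 14.3), Rftn1 (16.2 and 14.2) and Afg1l (17.2 and 13.3) followed. Dock8 encodes an exchange factor for Cdc42 needed in lymphocyte migration, and Rftn1 encodes a lipid-raft protein of B cells. Intergenic regions near Map2k6, a kinase of the p38 pathway, had means of 17.9 and 12.3, and near Arhgap5 14.4 and 16.9. The remaining 5 lay nearest to Gpd2, Xkr9, Bmt2, Ube2q1 and Nsmaf. ETS-IRF matches were found in 5 of the 12, those at Mcoln3, Xkr9, Afg1l, Bmt2 and Ube2q1.

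Genes known for roles in lymphoid cells were among those nearest to shared new regions. Means below are over the libraries with a call. Among lymphoid commitment genes, 13 of the 496 regions nearest to them were shared new regions (2.62%, against 1.46% of all regions with a nearest gene), at 10 of 32 genes. The region 42.2 kb upstream of Il7r, which encodes the receptor chain used to sort CLPs, had fold enrichments of 13.2 and 12.5 in young and 11.6 and 6.61 in aged GMPs. In CLPs it had 6.29 and 9.95 in young and 13.9 and 12.5 in aged libraries. The region in an intron of Ikzf1, encoding the lymphoid factor Ikaros, had means of 13.6 ± 2.90 in GMPs and 9.53 ± 1.22 in CLPs (SD, n = 4 each). The region 2.52 kb upstream of Dntt, which encodes the enzyme that adds bases at V(D)J joints, had 9.23 ± 1.07 and 6.78 ± 2.03. The promoter of Il7r was called in none of the 8 HSC libraries and that of Ikzf1 in all 8. Other regions called in all 8 GMP and CLP libraries lay near Foxp1 (8.78 and 6.76) and Ets1 (9.49 and 5.56).

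Shares at myeloid receptor and transcription factor genes lay near that of all regions. Of the regions nearest to myeloid receptor and surface genes, 4 of 211 were shared new regions (1.90%, beside 1.46% of all regions), and 56 (26.5%, beside 16.6%) were GMP regions without CLP. The region 5.41 kb upstream of Csf3r, the receptor for granulocyte colony-stimulating factor, was called in all 8 libraries, with 13.9 and 14.6 in young and 13.2 and 11.1 in aged GMPs, and 8.29 and 6.41 in young and 9.99 and 11.0 in aged CLPs. The GMP values were above the CLP values as deposited, and the centred log2 difference was -0.03. The others lay near Fcgr1, Fcgr2b and Sirpa. Among myeloid transcription factors 9 of 449 (2.00%) were shared new regions, and those named lay far from the TSS. The region nearest to Zeb2 was 575.6 kb from it (means of 17.6 in GMPs and 10.2 in CLPs). Those nearest to Maf were at 212.5 and 283.2 kb, to Cebpd at 97.7 kb and to Egr2 at 106.9 kb. The list of primary and secondary granule genes had 3 of 95 (3.16%), at Cybb and Padi4.

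Innate sensing genes had a larger share. Of the 331 regions nearest to Toll-like receptor and NF-kB genes, 14 (4.23%) at 10 of 30 genes were shared new regions, which is read beside 1.46% of all regions and without a test. An intronic region of Tlr4, the receptor for lipopolysaccharide, had 17 and 22.4 in young and 20.0 and 23.4 in aged GMPs, and 4.79 and 9.61 in young and 6.48 and 13.4 in aged CLPs. The region near Tlr7, a receptor for single-stranded RNA, had 14.9 ± 2.10 in GMPs and 6.24 ± 1.44 in CLPs. The region 28.6 kb from Nfkb1, encoding a subunit of NF-kB, had 13.1 ± 2.09 and 7.32 ± 0.963 (SD, n = 4 each). The region near Nfkbiz, encoding an inhibitor-like regulator of NF-kB, was higher in CLPs (below). Growth genes had 6 of 265 (2.26%), among them a region 12.4 kb downstream of the Myc TSS with 20.2 ± 2.72 in GMPs and 11.1 ± 4.23 in CLPs, and a region 8.17 kb from Rb1 with 18.9 ± 2.46 and 11.5 ± 4.07. Chemokine and adhesion genes had 6 of 309 (1.94%), interferon response genes 2 of 150 (1.33%) and antigen presentation genes 2 of 120 (1.67%). Over all lists, 24 of the 73 shared new regions next to a listed gene held an ETS-IRF match (32.9%).

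Marker lists of other cells were read the same way. Shared new regions were 7 of the 165 regions nearest to dendritic cell markers (4.24%), 3 of 84 for mast cell, basophil and eosinophil markers (3.57%), 4 of 183 for T and NK cell markers (2.19%) and 1 of 56 for B cell markers (1.79%). They were 1 of 94 for erythroid and megakaryocyte markers (1.06%) and 1 of 254 for stem cell genes (0.394%). The part of such cells in the calls was not tested. GMP regions without CLP were 25.3% of regions next to granule genes, 25.8% for antigen presentation genes and 19.6% for B cell markers (16.6% of all regions). CLP regions without GMP were 3.43% of those next to lymphoid genes, 3.57% for B cell markers and 3.83% for T and NK cell markers (1.48% of all regions).

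Nearest genes were mostly different from region to region. The 1533 regions with a nearest gene were spread over 1313 genes, of which 1129 had 1 region, 151 had 2, 30 had 3 and 3 had 4. Those with 4 were Setbp1 (of 28 regions nearest to it), Ly86 (of 42) and Auts2 (of 47). Ly86 encodes MD-1, the partner of the Toll-like receptor homologue RP105 on B cells and macrophages, and its promoter was not called in HSCs. Its 4 regions lay between 0.240 and 130.0 kb from the TSS, with mean fold enrichments of 6.28 to 9.41 in GMPs and 6.45 to 9.91 in CLPs. Cd48, which encodes an adhesion molecule gained as stem cells differentiate, had 3 of its 6 nearest regions in the set, 1 of them in the promoter window, with 6.83 to 11.8 in GMPs and 5.57 to 6.65 in CLPs. Hepacam2 had 3 of 5, Cd200r3 and Lpcat2 3 of 11 each, Srgap2 3 of 12, Ctsh 3 of 13 and Nsmaf 3 of 20.

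Whether GMPs or CLPs were more open was not used by the selection. The difference was tested in the 425 regions called in all 8 libraries, within a fit over all 18378 such regions. The fit was limma on log2 fold enrichment with age as a term (Benjamini-Hochberg over all regions, threshold 0.05). Each library was centred on its median over these 18378 regions, not over all its peaks. Relative to those medians, 49 of the 425 were higher in GMPs (19.4% of all regions tested were) and 146 were higher in CLPs (25.9% of all). Without centring 203 were higher in GMPs (47.8%, beside 67.9% of all) and 32 were higher in CLPs (7.53%, beside 3.5% of all). Centring shifted the difference of every region alike, moving the median over all regions from 0.55 to -0.06 on the log2 scale, and without it 102 of the 146 kept a negative GMP minus CLP difference, whether or not past the threshold. The median difference was -0.23 in these 425 regions after centring. Among the regions left out, 369 were called in 4 GMP and 2 CLP libraries (median fold enrichment 10.4 and 6.43) and 260 in 4 and 3 (11.1 and 7.02). Only 70 were called in 2 GMP and 4 CLP libraries (7.12 and 7.78) and 91 in 3 and 4 (8.08 and 7.93). The direction over all shared new regions was therefore not tested.

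Among regions higher in GMPs on both scales, the largest difference was at an intergenic region 197.8 kb from the TSS of Thbs1, encoding a matrix glycoprotein. It had 28.8 and 29.4 in young and 30.1 and 30.5 in aged GMPs, and 6.38 and 11.3 in young and 5.94 and 12.7 in aged CLPs. All GMP values were more than 2 times the CLP values there, and the centred log2 difference was 1.18 ± 0.19 (SE, limma adjusted p = 0.000351). An intronic region of Ptger3, a receptor for prostaglandin E2, had means of 19.3 ± 3.44 and 5.73 ± 0.662 (SD, n = 4 each), with a log2 difference of 1.13 ± 0.16 (SE). The other four lay nearest to Sec22c, Ccser1, Pde3a and Dhx15, with differences of 0.85 to 0.96. The regions of Tlr4 (0.76 ± 0.21, adjusted p = 0.0113 by limma) and Tlr7 (0.66 ± 0.15, adjusted p = 0.00339 by limma) were past the threshold in the same direction, but Tlr4 was not when aged CLP replicate 1 was left out (0.60) or with -log10 q in place of fold enrichment (limma adjusted p = 0.0566).

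Among regions higher in CLPs on both scales, the largest difference was at an intronic region of Ccdc93, which encodes a part of an endosomal recycling complex. It had 4.40 and 7.54 in young and 5.51 and 6.01 in aged GMPs, and 13.6 and 14.2 in young and 12.8 and 16.7 in aged CLPs. The groups did not overlap, and the centred log2 difference of GMP minus CLP was -1.92 ± 0.15 (SE, limma adjusted p = 6.67e-06). A region nearest to Dnajc9, in the 3' UTR of Fam149b, had means of 6.64 ± 1.54 and 15.9 ± 1.44, with a difference of -1.90 ± 0.16. A region in an intron of Atp2b2, nearest to Sec13, had -1.80 ± 0.19, and those nearest to Acvr2a, Herc1 and Tmem87b had -1.43 to -1.54. The Tmem87b region lies in an intron of Mertk, a receptor for the uptake of dying cells. The Nfkbiz region had 7.2 and 11.2 in young and 10.9 and 8.71 in aged GMPs, and 12.3 and 11.0 in young and 15.2 and 16.2 in aged CLPs. These values overlapped between the fractions, and its difference was -1.14 ± 0.15 (limma adjusted p = 0.000101), or -0.53 without centring. A region 49.8 kb from Cd200r3 had -1.30 ± 0.12.

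**Figure D5:**
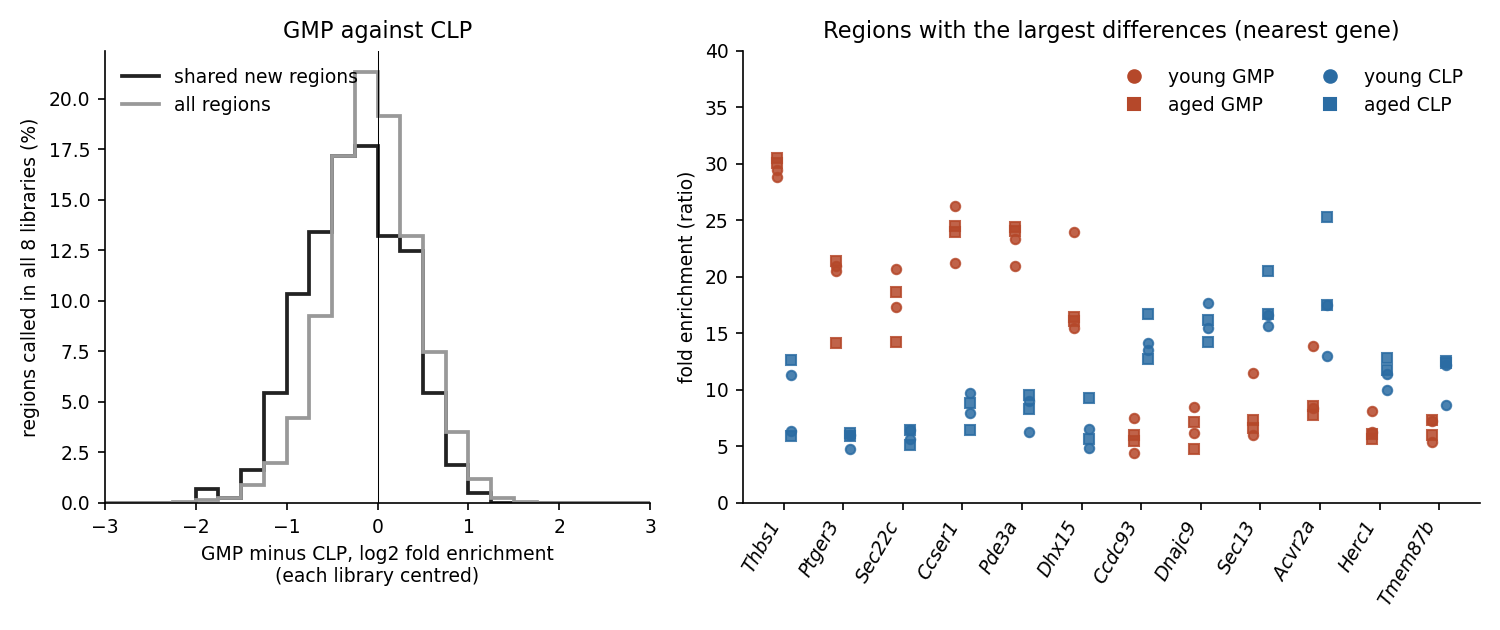
Left, share of regions (percent) by GMP minus CLP difference in log2 fold enrichment after centring each library, for the 425 shared new regions called in all 8 libraries (black) and all 18378 such regions (grey). Right, fold enrichment in each library of the 6 regions with the largest difference in each direction, named by nearest gene, with GMPs in red and CLPs in blue, circles for young and squares for aged. The black outline lies to the left of the grey outline after centring, whereas without centring 203 of the 425 were called higher in GMPs, beside 67.9% of all regions.

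By the centred calls, which become 203 and 32 without centring, C/EBP was matched in 24.5% of the 49 regions higher in GMPs and in 8.22% of the 146 higher in CLPs, and E2A in 4.08% and 15.8%, the same order as in the single-lineage sets. ETS-IRF, in the opposite order to those sets, was matched in 40.8% and 32.2%, and in 37% of the 230 that did not pass the threshold. These shares are over few regions, carry no test and were taken on the centred scale only.

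No shared new region passed a test of age. None of the 1054 regions called in all 4 GMP libraries and none of the 586 called in all 4 CLP libraries passed the threshold in limma, and neither did any of the 43975 and 21315 regions tested in all (0% in each direction). At an unadjusted p under 0.05 in limma were 112 of the 1054 in GMPs (2880 of all 43975) and 79 of the 586 in CLPs (1511 of all 21315). The calls themselves were used by the selection, so a region called at 1 age only entered through that age, and the following counts are a description. In calls, 29 shared new regions were open in both aged and no young GMP library (1.89%, beside 3.43% of all regions called in 2 or more GMP libraries) and 43 in both young and no aged one (2.80%, beside 1.61%). In CLPs 149 were called only in aged libraries (9.70%, beside 2.55%) and 66 only in young ones (4.30%, beside 3.71%). Another 190 were called in both CLP libraries numbered 2 and in neither numbered 1 (12.4%, beside 6.08%), and 16 the other way round (1.04%, beside 0.586%). The sets differ in calls: 36.1% of the shared new regions had 2 CLP calls. Young and aged CLP libraries called on average 72.0% and 79.0% of them, against 89.2% and 85.4% of all regions with 2 or more CLP calls. The part of this in these counts was not tested.

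The estimates differed in sign between the fractions. Aged minus young was above 0 in 337 of the 1054 regions in GMPs, with a median of -0.12 on the log2 scale, and in 403 of the 586 in CLPs, with a median of 0.13, whereas the medians over all regions tested were 0.00 and 0.01. Leaving out any 1 library of the fraction tested gave medians of -0.18 to -0.09 in GMPs and 0.11 to 0.15 in CLPs. The difference of the age change between the fractions was positive in 93 of the 425 regions called in all 8 libraries, with a median of -0.31 against -0.02 over all regions. No region passed the test of that difference (0% in each direction), at an unadjusted p under 0.05 for 98 of the 425 and 1228 of all 18378 in limma. The share called also differed between libraries of the same age, most in aged CLPs (68.6% and 89.3%), and the part of this in the medians was not tested.

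The region with the largest age difference in GMPs lay 9.27 kb upstream of Ifnar1, which encodes a chain of the type I interferon receptor. Its fold enrichment was 17.1 and 16.5 in young and 5.68 and 6.30 in aged GMPs, and the groups did not overlap. The log2 difference was -1.53 ± 0.18 (SE, limma adjusted p = 0.473). In CLPs it was called in both young libraries (10.4 and 7.48) and in 1 aged library (6.31). The region 6.64 kb from Selplg, encoding the P-selectin ligand, had 7.29 and 9.39 in young and 5.17 and 6.48 in aged GMPs. In CLPs it had 4.87 and 5.36 in young and 7.82 and 9.51 in aged libraries, so the ages did not overlap in either fraction and the order was opposite. Its difference of age changes had a limma adjusted p of 0.442. The Il7r region had the same pattern, with adjusted p = 0.509 in limma.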

How the data were processed

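ATAC-seq of 60 bp single reads was performed by the authors on 36 libraries of 20000 cells, with fragments of 240 to 360 bp selected. Per the study's methods and the submitters' processing notes, reads were aligned with Bowtie2 to mm10, handled with SAMtools, subsampled to the same number per library, and peaks were called with MACS2 2.2.6 in each library, so replicates were not pooled. Each deposited list states, at a peak's summit, the fold enrichment as a ratio over the local background and significance as -log10 of the p-value and of the q-value. They also hold a score deposited with each peak, which was not used. The smallest -log10 q-value was 3.00 to 3.02 in all libraries, so only peaks past that limit are in the lists.

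Peaks overlapping by 1 bp or more were merged, and a library's value at a region was that of its strongest entry. Peak starts are counted from 0 in the lists and from 1 here. Smallest peak widths were 132 to 139 bp in GMPs and 170 to 183 bp in CLPs. Regions were annotated by their centre with protein-coding transcripts of GENCODE M21 (GRCm38), a promoter reaching 1000 bp before and 100 bp past a TSS, and assigned to the nearest TSS. Motifs were searched in the RefSeq GRCm38 genome sequence within 100 bp of the median summit, for 1533 of the 1536 regions. The remaining 3 lie on scaffolds outside the chromosomes used.

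Groups came from the labels. Log2 fold enrichment was tested with limma 3.58.1 in R 4.3.3 without a pseudocount. Each library was centred on its median over the regions tested. Only regions with a call in every library compared were tested, which leaves out regions lost at an age or missed in a single library. The fits were also run on simulated data with an equal spread in every region. That setting differs from the data, so nothing is concluded from it about the age tests. An exact permutation test of the share of calls by age had been planned, but the calls chose the regions, so these shares are given without a test. The lists hold no counts, so the study's count model was not run. The shared new regions, gene lists, motifs and tests were chosen with earlier results of these data known. Named regions were the 12 strongest, the 6 largest GMP against CLP differences per direction, up to 5 per gene list ranked by calls and then fold enrichment, those called in all 4 MEP libraries, and the 10 genes nearest to most regions, with ties (30 genes had 3) broken by the fewest regions nearest to the gene. No region passed an age test. The Ifnar1, Selplg and Il7r regions, named through the gene lists, were described by age after their values were seen.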

Additional observations from a re-analysis of the deposited data

How the results depend on the processing

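The number of shared new regions depends on how many peaks each library contributes. It was 675 when every library except MEP was limited to the same number of its strongest peaks (27087), 425 when calls in all 4 GMP and all 4 CLP libraries were required, 1165 with a -log10 q of at least 10, 1317 when only peaks spanning at least 50% of a merged region counted as calls, 2261 when 1 upstream call was allowed, and 1114 to 1703 when 1 library was left out. The share called in MEP was 0.593% with equal peak numbers and 0.0812 to 0.259% without 1 library. The share at promoters was 1.56% with promoters starting 500 bp upstream and 2.03 to 2.90% without 1 library. The age difference in the share called ranged from -5.49 to 3.31 percentage points in GMPs and from -5.88 to 14.9 in CLPs without 1 library. It was positive in GMPs without young GMP replicate 2 (3.31) or aged GMP replicate 2 (2.05), and negative in CLPs without young CLP replicate 1 (-0.656) or aged CLP replicate 2 (-5.88). With equal peak numbers it was -15.2 in GMPs and 12 in CLPs. The cause was not tested.

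In the GMP against CLP test 344 regions passed (98 higher in GMPs, 246 in CLPs) when 1 missing call was allowed, which adds regions to the test, and 187 to 231 passed without 1 library, against 195. Quantile normalization gave 58 and 122, beside 49 and 146. Without centring, which shifts every difference alike, 4 of the 25 named regions past the threshold changed sign, at Dock8 (0.20), Gpd2 (0.22), Xkr9 (0.0626) and Ly86 (0.0266), which follows from the size of their differences. Under the other alternatives no named region past the threshold changed direction. Of 375 combinations of these regions and alternatives, 341 kept the call and 30, at 9 regions, fell short of the threshold. Age tests and their difference between fractions passed no shared new region under any alternative. A limma fit with a variance trend called 1 of 43975 regions in GMPs, which was not a shared new region. The smallest adjusted p among the shared new regions was 0.0519 to 0.820 over the alternatives in GMPs (0.473 in the reported fit), 0.114 to 1.00 in CLPs (0.553) and 0.288 to 0.876 for their difference (0.442).

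In regions called in every library of a fraction, deviations of same-numbered libraries from the group means correlated at 0.0437 in GMPs and 0.0469 in CLPs, with only 2 pairs in each, so the reported fits had no replicate block. In calls the CLP libraries numbered 2 both held more shared new regions (80.5% and 89.3%) than those numbered 1 (63.5% and 68.6%). With the replicate block, 202 regions passed the GMP against CLP test and 0 passed each of the age tests. The blocked age difference in the share called was -1.50 percentage points in GMPs and 6.93 in CLPs. Within 50 bp of the summit ETS-IRF was matched in 23% of the shared new regions and 5.20% of all regions, a ratio of 4.42.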

Other observations

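Pairs of matches in the same window were rare. PU.1 and ETS-IRF were both matched in 70 shared new regions (4.57%, against 1.01% of all regions), PU.1 and C/EBP in 22 (1.44%, against 1.06%) and RUNX and E2A in 19 (1.24%, against 1.29%). In CLP regions without GMP, RUNX and E2A were both matched in 6.31%. None of the PU.1, ETS, C/EBP, RUNX, E2A, IRF, ETS-IRF and AP-1 consensus sequences was matched in 28.5% of the shared new regions and in 44.3% of all regions.

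Among the shared new regions, 464 with an ETS-IRF match had a median fold enrichment of 9.77 in GMPs and 7.42 in CLPs, and 1069 without it had 9.23 and 7.08. Those called in all 8 libraries made up 32.8% of the former and 25.5% of the latter.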
